A study of Mus musculus with 12 samples.

Results

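The 10 genes described here encode heat shock chaperones, and they were chosen by name from the 24421 gene symbols of the count table. They are Hsp90ab1, Hsp90aa1, Hsp90b1, Hspa8, Hspa5, Hspa1a, Hspa1b, Hspd1, Hspe1 and Hsph1. RNA was measured in SMCCs, an immortalized line of mouse small cholangiocytes, the epithelial cells that line the bile ducts. The study changed β-catenin activity in these cells in both directions to see how gene expression responds. Every library came from this cell line, grown in EMEM, and every culture was transfected. The siCTL cells received a control siRNA and the si-bcatenin cells an siRNA against β-catenin, both with Lipofectamine RNAiMAX for 24 h. The eGFP cells received an eGFP plasmid and the S45Y cells a plasmid for the stable β-catenin mutant S45Y, both with Lipofectamine 3000 for 48 h. Each group held 3 libraries, 12 in all. No untransfected library was analysed here. The plasmid and siRNA libraries therefore differ in cargo, reagent, hours and depth, and what these contribute to a difference between them cannot be told apart. The labels do not say whether the 3 libraries of a group came from separate cultures, so p-values measure only the spread between these libraries.

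Chaperones bind unfolded or partly folded proteins and help them fold, many of them by using ATP. HSP70 proteins take up short hydrophobic stretches as a protein emerges or unfolds, and J-domain proteins deliver such clients to them. HSP90 proteins act later, on nearly folded clients such as kinases and steroid receptors, together with co-chaperones. Damage to cytosolic proteins frees the transcription factor HSF1, which switches on inducible chaperones such as Hspa1a and Hspa1b, while the unfolded protein response raises the chaperones of the endoplasmic reticulum (ER). Hsp90ab1 is made without stress and is often used as a reference gene for expression measurements. Actb, B2m, Gapdh and Gusb are used in the same way and are compared with it here.

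Library totals ran from 91468 to 122304 counts with plasmids and from 221767 to 326686 counts with siRNAs, and 1510 to 3846 genes per library reached 10 counts. The ribosomal RNA precursor Rn45s held 12.6% ± 2.69 of all counts in eGFP, 12.9% ± 2.47 in S45Y, 4.31% ± 1.03 in siCTL and 2.15% ± 0.463 in si-bcatenin (SD over 3 libraries). Ctnnb1, the β-catenin gene, had 13, 38 and 28 counts in siCTL and 0, 11 and 3 counts in si-bcatenin. The si-bcatenin minus siCTL difference was -2.54 on the log2 scale (edgeR, adjusted p = 0.00491). In eGFP it had 6, 11 and 10 counts and in S45Y 11, 4 and 18 counts, groups that overlap. Of 10 cholangiocyte markers 8 had counts, led by Krt18 with 1150, Spp1 with 609 and Krt8 with 589 over all libraries, while Epcam and Cftr had none. The 5 hepatocyte markers had no count in any library. Marker genes of fibroblasts and of endothelial cells had 7 counts each in all 12 libraries together. Of 5 macrophage and leukocyte markers only Cd68 and Csf1r had counts, 174 and 55, and Ptprc, Adgre1 and Lyz2 had none.

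Together the 10 genes took 0.417% to 0.454% of the counts of a plasmid library and 0.279% to 0.332% of those of an siRNA library. Their levels were compared as CPM, counts scaled to library size with TMM factors, divided by the kilobases of merged exons of the gene. All exon bases were used, though many 50-base windows recur in transcripts of other genes. These were 50.1% for Hsp90aa1, 68.8% for Hspa8 and 42.1% for Hspd1, against 4.13% for Hsp90ab1. The handling of such reads is not given. If they were left out, the genes that share more would stand too low in the order. Hsp90ab1 was the most abundant at 899 CPM per kb ± 163 (SD, n = 12), followed by Hsp90b1 at 214.5 ± 77.6. Both places in this order held in 12 of 12 libraries. Hsp90aa1 at 47.8 ± 16.3 and Hspa8 at 45.1 ± 23.0 lay close together, with Hsp90aa1 higher in 8 of 12 libraries. Hspd1 followed at 33.1 ± 13.2, and Hspa8 exceeded it in 7 of 12 libraries. The order of these 3 genes differed between the kinds of transfection. With plasmids Hspa8 stood at 65.4 CPM per kb (range 56.3 to 77.1), Hsp90aa1 at 53.9 (37.8 to 79.5) and Hspd1 at 28.4 (at most 55.6), so that Hspa8 lay above Hspd1 without overlap. With siRNAs Hsp90aa1 stood at 41.7 (18.8 to 59.2), Hspd1 at 37.8 (22.35 to 51.3) and Hspa8 at 24.7 (13.25 to 39.1), and all 3 overlapped. Hspa5 stood at 20.1 ± 10.1, Hspe1 at 9.84 ± 6.99 and Hsph1 at 2.80 ± 2.35 CPM per kb. Hspa1a and Hspa1b had no count in any library.

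**Figure D1:**
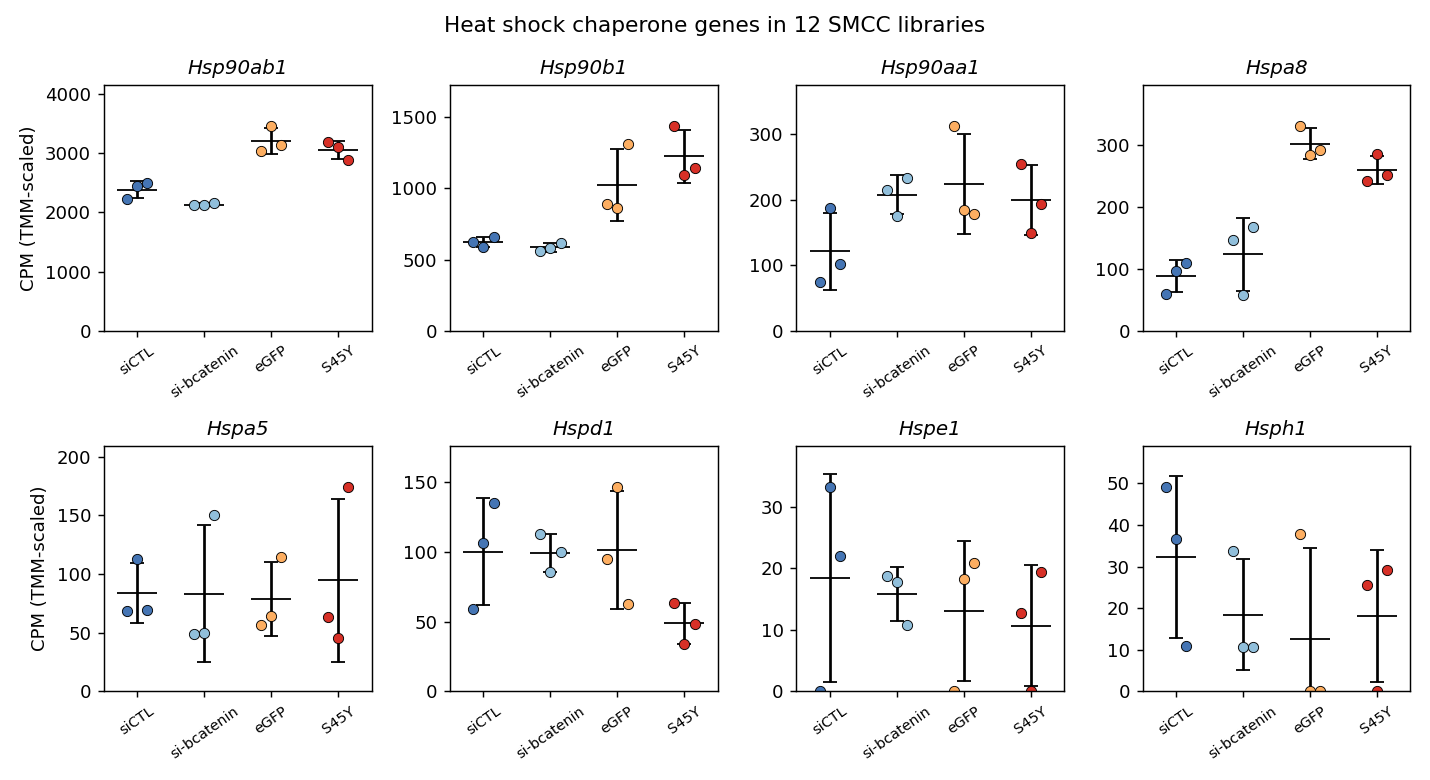
CPM after TMM scaling (y axis, from 0, a scale of its own for each gene) of the 8 chaperone genes with counts, in the 3 libraries of each group (points), with the group mean and SD (lines). Hsp90ab1, Hsp90b1 and Hspa8 were higher in all 6 plasmid libraries than in all 6 siRNA libraries, and the other 5 genes overlapped.

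Hsp90ab1 encodes HSP90β, the constitutive HSP90 of the cytosol. It lies on chromosome 17 of mm10 from 45567775 to 45573271 on the minus strand, has 9 merged exons, and overlaps no exon of an opposite-strand gene. Only 4.13% of the 50-base windows of its transcripts also occur in transcripts of another gene. It had 451, 733 and 680 counts in siCTL, 563, 595 and 603 in si-bcatenin, 321, 377 and 301 in eGFP and 250, 271 and 297 in S45Y. After scaling this was 2219, 2441 and 2489 CPM in siCTL and 2117, 2120 and 2159 CPM in si-bcatenin. It was 3040, 3461 and 3141 CPM in eGFP and 3185, 3100 and 2878 CPM in S45Y. The si-bcatenin libraries all lay just under the lowest siCTL library, the eGFP and S45Y libraries overlapped, and all plasmid libraries lay above all siRNA libraries.

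Within a group Hsp90ab1 varied little. Its coefficient of variation (CV) was 6.05% in siCTL, 1.098% in si-bcatenin, 6.84% in eGFP and 5.19% in S45Y. The value of si-bcatenin lies under the 4.129% that counting alone gives in that group. The root mean square of the group CVs, which that low value brings down, is 5.28%, close to the 5.03% that counting alone gives at these counts. Among the 330 genes with a mean of at least 100 counts per library this was rank 4 from the steadiest, where the median gene had 12.1%. Hsp90ab1 was picked out as the best-counted of the usual reference genes, and its mean of 453.5 counts is above that of 268 of the 330 genes, whose median is 220.4. Counting error is larger at lower counts, so the rank follows in part from this choice. Over all 12 libraries its CV rose to 18.1%, rank 128 of 330, against a median of 20.96%. The CV over 12 libraries fell to 10.1% when TMM factors were taken from all genes with no filter on low counts. It was 15.03% without eGFP replicate 2, the highest library. Hsp90ab1 was steady among libraries of the same transfection, and the larger part of its variation lay between plasmid and siRNA libraries.

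**Figure D2:**
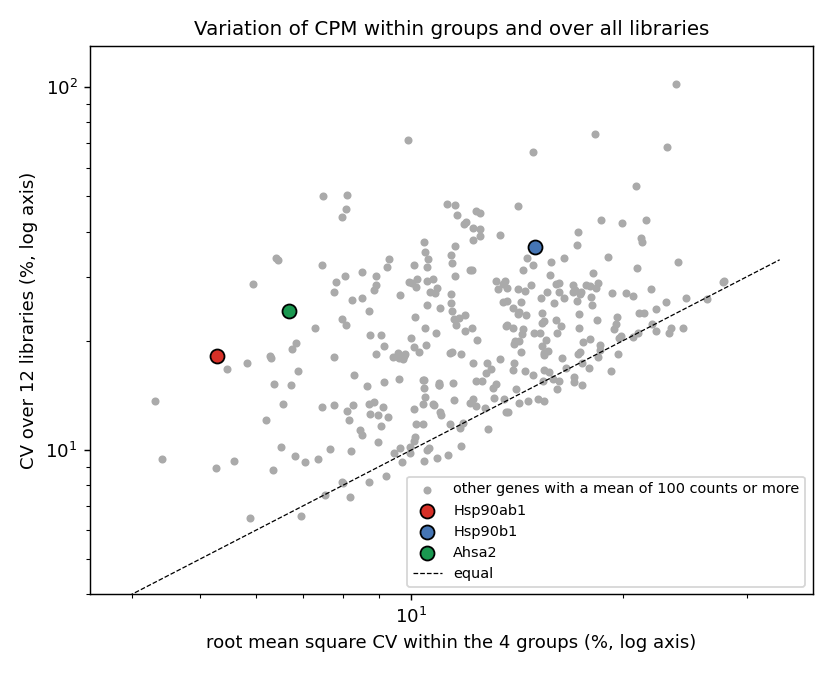
CV of CPM over all 12 libraries (y axis, %, log scale) against the root mean square of the CVs within the 4 groups (x axis, %, log scale) for the 330 genes with a mean of at least 100 counts per library; the dashed line marks equal values. Hsp90ab1 sits far to the left at 5.28% and well above the line at 18.1%, as does Ahsa2, and Hsp90b1 sits at 15.02% and 36.2%.

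Actb, B2m, Gapdh and Gusb had fewer counts than Hsp90ab1, as its choice fixed, and their CVs are given as a description. Actb, cytoplasmic β-actin, had 27 to 150 counts per library and a CV of 26.2%, where counting alone gives 14.05%, with group means of 351 CPM ± 142 in siCTL, 361 ± 88.7 in si-bcatenin, 423 ± 122 in S45Y and 378 ± 80.7 in eGFP (SD over 3 libraries). Its plasmid minus siRNA difference on the log2 scale was 0.16 (adjusted p = 0.526 from edgeR). Gapdh, a glycolytic enzyme, had 13 counts and B2m, the light chain of MHC class I, 18 counts in all 12 libraries together, and neither could be tested. Of the 50-base windows of the Gapdh transcripts 58.4% recur in transcripts of other genes, where reads cannot be placed uniquely. Gusb, the lysosomal β-glucuronidase, had 20 counts with plasmids, at 0 to 93.9 CPM, and 125 counts with siRNAs, at 60.9 to 97.8 CPM. Only 1 plasmid library reached the count filter, so Gusb was kept through the siRNA libraries. Its fitted log2 difference of -1.16 (adjusted p = 0.0410 from edgeR) is therefore not read as a change, and it passed in 7 of 14 alternative settings.

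The genes whose CPM followed Hsp90ab1 most closely over the 12 libraries were Rnf157 with a Pearson r of 0.970, Gm15441 with 0.956 and Micall1 with 0.948, out of 2995 genes compared. These values are a description, since the libraries share depth within each kind of transfection. Gm15441 ran from 3019 to 5228 CPM with plasmids and from 64.4 to 205 CPM with siRNAs, so its likeness to Hsp90ab1 is that of a step between both kinds of library. Rnf157 ran from 310 to 459 CPM with plasmids and from 103 to 212 CPM with siRNAs.

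Hsp90aa1 encodes HSP90α, the stress-inducible partner of HSP90β in the cytosol. It lies on chromosome 12 from 110690605 to 110702728 on the minus strand, and 50.1% of its 50-base windows recur in other transcripts, mostly those of the pseudogenes Gm12346 and Gm5844, so its counts are uncertain. It had 73.8, 186.5 and 102.5 CPM in siCTL, 214, 175 and 233 CPM in si-bcatenin, 312.5, 184 and 177 CPM in eGFP and 255, 149 and 194 CPM in S45Y. The siCTL group held the 2 lowest libraries, and every pair of groups overlapped. Per kb, Hsp90ab1 exceeded Hsp90aa1 about as plainly with siRNAs, at 753 against 41.7 CPM per kb, as with plasmids, at 1045 against 53.9.

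Hsp90b1 encodes GRP94, the HSP90 of the ER, which folds secreted and membrane proteins such as integrins. It lies on chromosome 10 from 86690209 to 86705509 on the minus strand, and 415 of its exon bases overlap the pseudogene 1810014B01Rik on the opposite strand, which itself had 27 counts. It had 625, 586 and 659 CPM in siCTL, 560, 581 and 619 CPM in si-bcatenin, 890, 863 and 1315 CPM in eGFP and 1440, 1098 and 1143 CPM in S45Y. Both siRNA groups were tight, and the lowest plasmid library, at 863 CPM, stood above the highest siRNA library, at 659 CPM. Hspa5 encodes BiP, the HSP70 of the ER and the sensor that holds the unfolded protein response in check. It lies on chromosome 2 from 34771970 to 34777547 on the plus strand and shares no 50-base window with another gene. It had 68.9, 113 and 69.5 CPM in siCTL, 48.9, 49.9 and 150.4 CPM in si-bcatenin, 56.8, 64.3 and 115 CPM in eGFP and 63.7, 45.8 and 174 CPM in S45Y. In every group a lone library stood well above the other two, at counts of 4 to 42, and the groups overlapped.

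The promoters of both ER genes hold the letters of the ER stress element, the sequence through which ATF6 is known to act in the unfolded protein response. It is shown because both ER genes hold it, and the difference between their values in these libraries was not tested. The search was for CCAAT, 9 bases of any kind and CCACG, on both strands, in the 250 bases before and 50 after the start of each gene in RefSeq (GRCm38.p6). This occurs in 0.119% of 32851 promoters. Capitals mark the match. The Hsp90b1 stretch is chr10:86705518-86705671 on the minus strand and holds 2 matches, the second in reverse orientation and 88 bases before the start. The Hspa5 stretch is chr2:34772020-34772048 on the plus strand, with its match 46 bases before the start.
Hsp90b1: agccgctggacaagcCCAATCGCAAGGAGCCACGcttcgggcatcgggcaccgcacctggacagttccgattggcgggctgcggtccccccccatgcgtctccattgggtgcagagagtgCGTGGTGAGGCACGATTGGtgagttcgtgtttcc
Hspa5: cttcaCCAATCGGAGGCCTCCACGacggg

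Hspa8 encodes HSC70, the constitutive HSP70 of the cytosol, which also strips clathrin from vesicles. It lies on chromosome 9 from 40800984 to 40810087 on the plus strand. Of its 50-base windows 68.8% recur in transcripts of 13 other genes, so its counts are uncertain. It had 59.0, 96.6 and 110 CPM in siCTL, 147, 57.0 and 168 CPM in si-bcatenin, 331.5, 285 and 292 CPM in eGFP and 242, 286 and 252 CPM in S45Y. The plasmid libraries ran from 242 to 331.5 CPM, all above the siRNA libraries at 57.0 to 168 CPM, on 12 to 47 counts per library. Hspa1a and Hspa1b, the HSP70 genes that heat and proteotoxic stress induce most strongly, are neighbours on chromosome 17 from 34969190 to 34972156 and from 34956436 to 34959238. Both had 0 counts in all 12 libraries. Zero counts leave room for as many as 3 counts per library, or 9.99 to 38.2 CPM depending on its depth, a limit for counting error only. The pair are close copies of each other. Their 300-base promoter windows are identical at 296 bases, and 66.3% of the 50-base windows of Hspa1a recur in 4 other genes, 58.8% in Hspa1b, where a read could not be given to 1 gene. A further limit is that 564 exon bases of Hspa1a overlap Gm20481 on the opposite strand. The count of 0 therefore holds only for reads that could be placed in these genes. Hspa1l, the neighbouring HSP70 gene better known from testis, had 597 counts, and 1778 of its exon bases overlap Gm10501 on the opposite strand. Hsph1, the HSP110 that recharges HSP70 with ATP, had 10, 11 and 3 counts in siCTL, 9, 3 and 3 in si-bcatenin, 4, 0 and 0 in eGFP and 2, 0 and 3 in S45Y, too few for a test.

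Hspd1 and Hspe1 encode HSP60 and HSP10, the barrel and lid of the chaperonin that folds proteins in mitochondria. They lie head to head on chromosome 1, Hspd1 from 55077835 to 55088243 on the minus strand and Hspe1 from 55088132 to 55091307 on the plus strand, and 112 exon bases overlap. Hspd1 had 59.0, 107 and 135 CPM in siCTL, 113, 85.5 and 100.2 CPM in si-bcatenin, 94.7, 147 and 62.6 CPM in eGFP and 63.7, 34.3 and 48.5 CPM in S45Y. The S45Y libraries were the low ones, but they rest on 5, 3 and 5 counts and overlap eGFP. Hspe1 had 0 to 10 counts per library, 36 in all, and was not tested. Of the windows of Hspd1 42.1% recur in other transcripts, mostly the pseudogene Hspd1-ps3, and of those of Hspe1 44.8%.

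The windows of Hspe1 and of 1 of the 2 starts of Hspd1 in RefSeq cover the same stretch of DNA. It is shown because it holds the letters of the heat shock element, the sequence that HSF1 is known to bind, in genes that had counts. The search was for GAA, TTC and GAA with 2 bases of any kind between them, on both strands, found in 0.603% of the 32851 promoters. Capitals mark 2 overlapping matches in chr1:55088053-55088082 on the plus strand, 71 bases before the Hspe1 start in RefSeq and 126 bases before that start of Hspd1 in the other direction. The window of the other Hspd1 start, chr1:55088194-55088493, has no match, and the stretch lies downstream of it.
Hspd1 and Hspe1: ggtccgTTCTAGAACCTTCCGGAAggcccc
Hsph1 has 1 match after its start. The Hspa1a and Hspa1b windows have none of these letters, which says nothing about the binding of HSF1 there. Hsp90ab1, Hsp90aa1 and Hspa8 were not searched for either element.

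β-Catenin silencing was asked of 3484 genes that passed the count filter, 6 of the 10 chaperone genes among them. None of the 6 passed an adjusted p of 0.05, against 1.55% of all genes tested. Hsp90ab1 was 0.881-fold of its siCTL level, a log2 difference of -0.18 (95% CI -0.36 to -0.0027, adjusted p = 0.390 from edgeR). Its groups did not overlap (two-sided exact permutation test, p = 0.1, the smallest that 3 against 3 allow), but 17.8% of all genes tested were separated in this way. Hsp90aa1 had the largest difference of the 6, a log2 difference of 0.71 (95% CI 0.17 to 1.26, adjusted p = 0.203 from edgeR), in groups that overlapped. It was 1.19 without siCTL replicate 2 (adjusted p = 0.0526 from edgeR) and between 0.50 and 0.83 without any other library. The other 4 lay between -0.11 for Hsp90b1 and 0.44 for Hspa8. Hspa8 was 0.79 without si-bcatenin replicate 2 and 0.16 without si-bcatenin replicate 3. The 95% interval was -0.39 to 0.18 for Hsp90b1 and wider, -0.83 to 0.73, for Hspa5. The median log2 fold change was -0.06 over the 6 genes and -0.0033 over all genes.

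β-Catenin activation was asked of 1819 genes, 4 of the 10 among them. None of the 4 passed, and neither did any other gene (0%). At an unadjusted p below 0.05 edgeR gave 107 of these 1819 genes. DESeq2, run on 12569 genes without the count filter, also called 0 genes after adjustment and gave 166 at an unadjusted p below 0.05. Hsp90ab1 differed by -0.03 on the log2 scale (95% CI -0.31 to 0.24), Hsp90aa1 by -0.15, Hspa8 by -0.18 and Hsp90b1 by 0.30 (95% CI -0.06 to 0.67, adjusted p = 0.931 from edgeR). Leaving out S45Y replicate 1 brought Hsp90b1 to 0.16, leaving out eGFP replicate 1 or 2 to 0.20 or 0.18, and leaving out eGFP replicate 3 to 0.49. None of the 4 separated the groups, against 11.1% of all genes. The median was -0.09 over the 4 genes and 0.02 over all genes. The effects of activation and silencing were also compared with each other, in 2996 genes. None of the 6 chaperone genes tested passed, against 0.534% of all genes. Activation minus silencing was furthest from 0 in units of its error for Hsp90aa1, at -0.92 on the log2 scale (standard error 0.45, adjusted p = 0.494 from edgeR).

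**Figure D3:**
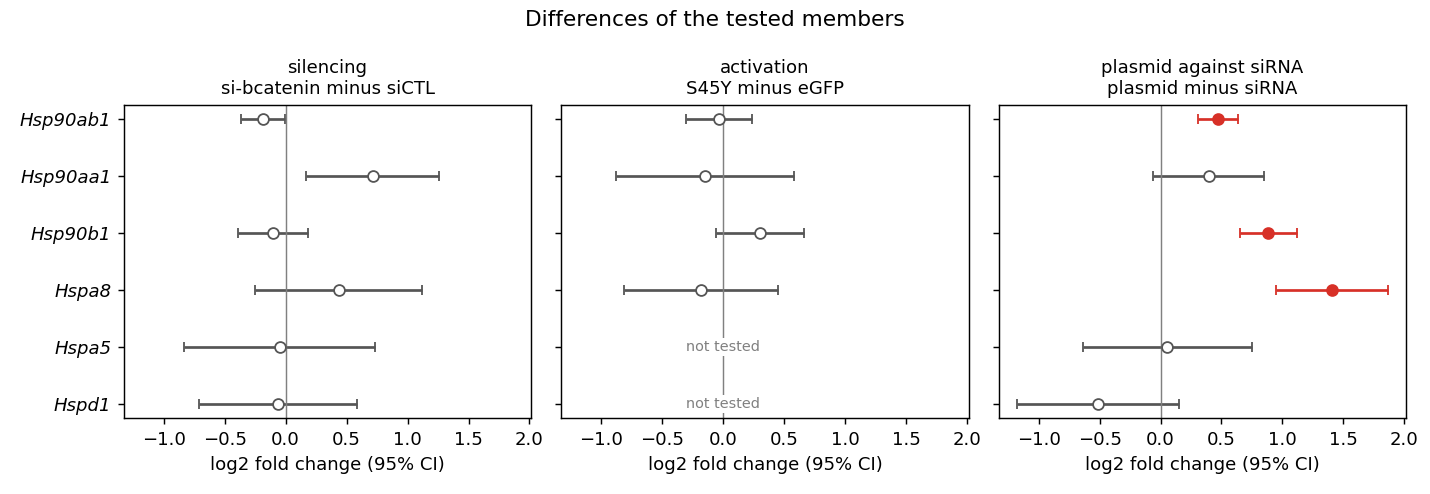
Log2 fold change (x axis) with its 95% confidence interval for the 6 chaperone genes that could be tested, in 3 comparisons; filled red points have an adjusted p below 0.05 from edgeR. The filled points are Hsp90ab1 at 0.47, Hsp90b1 at 0.88 and Hspa8 at 1.40, all in the comparison of plasmid with siRNA libraries.

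Between the plasmid and the siRNA libraries 3 chaperone genes differed. With plasmids, Hsp90ab1, Hsp90b1 and Hspa8 were higher than with siRNAs, and no chaperone gene passed as lower. That is 3 of the 6 tested, against 28.8% of the 2996 genes tested in either direction, 12.6% higher and 16.3% lower. Hspa8 rose the most, from 106 CPM ± 45.2 with siRNAs to 281 ± 31.8 with plasmids (SD, n = 6 each), a 2.65-fold difference (log2 1.40, 95% CI 0.94 to 1.86, adjusted p = 7.93e-07 from edgeR). Hsp90b1 rose from 605 CPM ± 35.9 to 1125 ± 228, 1.84-fold (log2 0.88, 95% CI 0.65 to 1.12, adjusted p = 3.09e-09 from edgeR). Hsp90ab1 rose from 2257 CPM ± 166 to 3134 ± 192, 1.39-fold (log2 0.47, 95% CI 0.31 to 0.64, adjusted p = 2.42e-06 from edgeR). These 3 genes separated the 6 plasmid from the 6 siRNA libraries, as 11.2% of all genes did (two-sided exact permutation test, p = 0.002165 for each, the smallest that 6 against 6 allow).

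The same 3 genes were higher between the controls alone and between the β-catenin arms alone. For eGFP against siCTL the log2 difference was 0.46 for Hsp90ab1, 0.74 for Hsp90b1 and 1.77 for Hspa8 (adjusted p = 0.00162, 0.000734 and 2.20e-05 from edgeR). For S45Y against si-bcatenin it was 0.54, 1.08 and 1.09 (adjusted p = 0.000885, 3.86e-06 and 0.0181 from edgeR). With no filter on low counts both the genes tested and the scaling factors changed. Of 14374 genes 191 then passed as higher and 744 as lower, against 377 and 487 of 2996, and the median of all genes was -0.16. Hsp90ab1 stood at 0.20 (adjusted p = 0.203 from edgeR), 0.37 above that median. Hsp90b1 and Hspa8 passed there too, at 0.61 and 1.13, which is 0.78 and 1.30 above it. With DESeq2, run on the same 14374 genes, Hsp90ab1, Hsp90b1 and Hspa8 passed at 0.43, 0.84 and 1.37. The median of all genes was 0.40 there, so that they lay 0.03, 0.44 and 0.97 above it. Over the 2996 genes that passed the filter the median was 0.02. Distances from medians over such different sets of genes, with DESeq2 or with no filter, are not comparable with those of the main fit.

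The other chaperone genes did not pass. Hsp90aa1 differed by 0.39 (95% CI -0.06 to 0.85, adjusted p = 0.197 from edgeR), and without siCTL replicate 2 by 0.65 (adjusted p = 0.0370 from edgeR). Hspa5 differed by 0.06 (95% CI -0.64 to 0.75) and Hspd1 by -0.51 (95% CI -1.17 to 0.15), so that the interval of Hspa5 still holds a part of the range given for Hsp90b1. Of the 6 plasmid libraries 2 reached the count filter for each of these 2 genes, against 4 and 5 of the 6 siRNA libraries. The inducible genes Hspa1a and Hspa1b had 0 counts in every library of either kind. The median over the 6 genes was 0.43, and over all genes 0.02.

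Chaperone partners and stress genes were read from lists, with the same comparison of plasmid with siRNA libraries. The counts below stand beside 12.6% of all genes tested that passed as higher and 16.3% as lower, and no list was tested as a group. Of 25 genes that HSF1 is known to control, 13 were tested. Hsp90ab1, Hspa8 and Tcp1 rose and none fell, which is 3 of 13 against 28.8% of all genes passing in either direction. The first 2 are among the 10 genes already described, and the median log2 difference was 0.18. Of 9 small heat shock proteins none had enough counts, and Hspb1 had 68 counts in all. Hsf1 itself had 64 counts and could not be tested. Of 19 HSP90 co-chaperones 8 were tested, with Cdc37l1 higher by 0.23 and Ahsa2 lower, at -0.61. Ahsa2, which is related to the activator of the HSP90 ATPase, was abundant at 3149 to 4084 CPM with plasmids and 4826 to 6048 CPM with siRNAs, but 2137 of its exon bases overlap Usp34 on the opposite strand. It was also the only gene of the chaperone lists that passed in silencing, at a log2 difference of -0.30 (edgeR, adjusted p = 0.0189). It lost that call without each library in turn except siCTL replicate 3, with adjusted p up to 0.145 from edgeR over all alternatives. Hspa1l, at 0.68 in silencing (adjusted p = 0.0605 from edgeR), did not pass there but did in 3 of 13 alternative settings. Cdc37l1 overlaps Ak3 on the opposite strand by 430 bases and lost its call without each of the 6 plasmid libraries in turn. It stood at -0.04 with no filter on low counts, where the other list genes that had passed kept their sign. Hspa5, which had not passed, was -0.22 there.

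Of 18 other HSP70, HSP110 and co-factor genes 8 were tested. St13, the HSP70-interacting protein that stabilizes HSP70 in its ADP-bound form, rose by 0.69 and Bag1, an exchange factor of HSP70, by 0.62, while Hspa1l fell by 1.28 on the log2 scale. St13 and Hspa1l passed in 21 of 21 alternative settings and Bag1 in 12. Bag1 did not pass with DESeq2, with no filter on low counts, or without eGFP replicate 1 or 3, S45Y replicate 2 or 3, or siCTL replicate 1. It also failed in both single comparisons, at 0.78 for eGFP against siCTL and 0.52 for S45Y against si-bcatenin (adjusted p = 0.0757 and 0.283 from edgeR). Of 24 J-domain genes 9 were tested. Dnajc1 fell by 0.68 and Dnajc14 by 0.37 on the log2 scale. Between eGFP and siCTL alone they did not pass, at -0.38 and -0.03. Their exons overlap those of Mllt10 by 749 and Ormdl2 by 1114 bases on the opposite strand. Of the 8 subunits of the CCT chaperonin, which folds actin and tubulin, 7 were tested and only Tcp1 rose, by 1.34. It overlaps Acat3 on the opposite strand by 571 bases, and Acat3 had 30458 counts. Of 16 mitochondrial chaperone and protease genes 5 were tested. Lonp1, the matrix protease, fell by 0.49 and Grpel1, an exchange factor of mitochondrial HSP70, by 0.47 on the log2 scale, and neither passed between the controls alone, at -0.55 and -0.56, or between the β-catenin arms alone, at -0.37 and -0.33. Grpel1 overlaps Tada2b on the opposite strand by 411 bases and did not pass without siCTL replicate 1 or 2 or si-bcatenin replicate 2.

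Of the 30 genes of the ER list 11 were tested, and 3 passed as higher and 2 as lower, against 12.6% and 16.3% of all genes. A further gene, Ppp1r15a, had an adjusted p below 0.05 but is set aside for its counts. The other 5 did not pass, Hspa5 at 0.06, Pdia3 at 0.64, P4hb at 0.79, Pdia4 at 0.91 and Syvn1 at -0.24. Those that rose are chaperones of the ER lumen and membrane, Hsp90b1, Calr and Canx. Calr, calreticulin, ran from 610.5 to 863 CPM with plasmids and from 267 to 444 CPM with siRNAs, a log2 difference of 1.15 (adjusted p = 6.34e-10 from edgeR). Canx, calnexin, differed by 0.54 (adjusted p = 0.00205 from edgeR), though it did not pass in eGFP against siCTL alone, at 0.47, or without a filter. Those that passed as lower are Atf4 and Ddit3, both transcription factor genes. Ddit3, which encodes CHOP, ran from 202 to 313 CPM with plasmids and from 465 to 670 CPM with siRNAs, a log2 difference of -1.27 (adjusted p = 1.53e-09 from edgeR). Atf4 differed by -0.91, and in S45Y against si-bcatenin alone by -0.70 (adjusted p = 0.1098 from edgeR). Ppp1r15a, the phosphatase subunit GADD34, had 9 counts with plasmids, at 0 to 45.8 CPM, and 112 counts with siRNAs, at 49.9 to 80.5 CPM. No plasmid library reached the count filter, so it was kept through the siRNA libraries alone, and its fitted log2 difference of -2.36, which ran from -4.11 to -2.13 in the 13 alternatives that could test it, is not read as a change. Ddit3 shares 68 exon bases with Mars and Ppp1r15a 12 with Tulp2 on the opposite strand. The strand setting of the counting is not given in the sources used here, so reads of such pairs cannot be told apart.

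**Figure D4:**
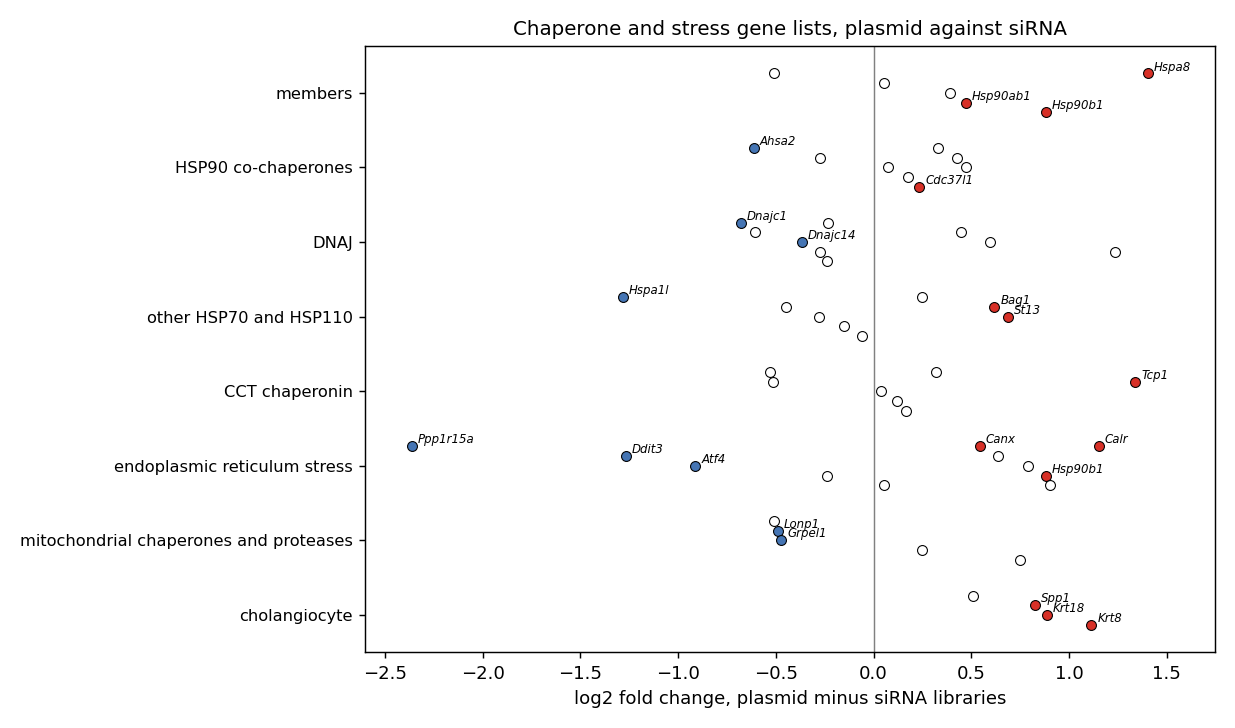
Log2 difference between plasmid and siRNA libraries (x axis) for the tested genes of 8 lists (rows; points are spread vertically for legibility), filled red or blue where higher or lower with an adjusted p below 0.05 from edgeR and open otherwise. In the ER list Calr, Hsp90b1 and Canx lie to the right and Ppp1r15a, Ddit3 and Atf4 to the left, Ppp1r15a on 9 counts in the plasmid libraries.

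Other measures moved with the same comparison. The summed level of the 10 cholangiocyte markers was 1533 to 2219 CPM in the plasmid libraries and 855 to 1392 CPM in the siRNA libraries. Of its 4 tested genes Krt8, Krt18 and Spp1 rose, by 1.12, 0.89 and 0.83, and Spp1 did not pass in eGFP against siCTL alone, at 0.36. Tubb5, a β-tubulin used as a reference gene, rose by 0.94 and was the only 1 of 7 tested among 15 further reference genes that passed. The share of Rn45s and the depth, given above, moved with it as well. Without Rn45s in the table Hsp90ab1, Hsp90b1 and Hspa8 differed by 0.47, 0.87 and 1.40. The part of the marker genes and of the depth in the differences of the chaperone genes was not tested. In bulk RNA, fewer cells that express a gene and less of its RNA per cell cannot be told apart.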

How the data were processed

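RNA-seq counts of 12 SMCC libraries were used, 3 for each of 4 transfections, grouped by their labels. The authors checked reads with FastQC, filtered them with Trimmomatic 0.38, aligned them to mm10 with HISAT2 2.1.0 and counted them with HTSeq 0.11.2, and the deposited values are whole-number counts for 24421 gene symbols, without normalization. The annotation, strand setting and handling of reads with several alignments are not given in the sources used here. edgeR 4.0.16 (R 4.3.3) was applied to these counts. filterByExpr kept genes at a minimum count of 10 and a minimum total of 15, libraries were scaled by TMM, and the quasi-likelihood test was used with Benjamini-Hochberg adjustment over all genes tested, at an adjusted p below 0.05. Silencing and activation were fitted on 6 libraries each, and plasmid against siRNA (mean of both plasmid groups minus mean of both siRNA groups) and the difference between both effects on all 12. CPM were scaled by the TMM factors of the genes that passed in 12 libraries. Exact permutation tests used log2 CPM with a prior count of 2. Precision follows from the depth of 91468 to 326686 counts.

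All 10 genes were described, along with 4 further reference genes (Actb, B2m, Gapdh, Gusb), the 3 genes with the highest r with Hsp90ab1, and up to 4 genes in each direction with an adjusted p below 0.05 from each list. The genes and lists were chosen with earlier results of these data known. The lists were written by hand. Rnf157, Gm15441 and Micall1 follow from the rule on r. Positions, overlaps and 50-base windows came from GENCODE M21 and promoter sequences from RefSeq (GRCm38.p6). The promoter sequences at hand covered 7 of the 10 genes and lacked Hsp90ab1, Hsp90aa1 and Hspa8. The fits were tested on simulated data. The alternatives were DESeq2 1.42.0, RLE or total-count scaling, no Rn45s, no filter, a minimum count of 30, a prior count of 0.5, the replicate number as a block, controls or treated groups alone, and each library left out. Chosen after seeing the data were genes without opposite-strand overlap and TMM factors of all genes for the CV.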

Additional observations from a re-analysis of the deposited data

How the results depend on the processing

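The number of chaperone genes that passed was 0 in silencing, in activation and for the difference between both effects in each alternative that could be run. For plasmid against siRNA it was 3, except for 2 with no filter on low counts, 2 among genes without opposite-strand overlap, where Hsp90b1 is left out, and 4 without siCTL replicate 2. With plasmids Hsp90b1 stayed past the threshold in 21 of 21 alternatives, Hspa8 in 22 of 22 and Hsp90ab1 in 21 of 22, the exception being no filter on low counts (0.20). With DESeq2 Hsp90ab1 passed at 0.43, where the median of all 14374 genes, most of them below the count filter, was 0.40. The CV of Hsp90ab1 over 12 libraries was 10.1% with no filter on low counts and between 15.03% and 19.2% with each library left out. Differences of genes that did not pass changed sign in places. For plasmid against siRNA Hspa5 was -0.22 with no filter, -0.081 among genes without opposite-strand overlap, -0.089 for eGFP against siCTL and -0.45 to 0.45 with each library left out. Hspd1 was 0.0397 for eGFP against siCTL and -1.01 for S45Y against si-bcatenin. Hsp90aa1 was 0.89 for eGFP against siCTL, -0.044 for S45Y against si-bcatenin and 0.17 to 0.65 with each library left out. For silencing Hsp90aa1 was 0.50 to 1.19 and Hspa8 0.16 to 0.79 with each library left out. Hspa5 was 0.035 among genes without opposite-strand overlap, and with each library left out Hspa5 ran from -0.79 to 0.24 and Hspd1 from -0.28 to 0.20. For activation, with each library left out, Hsp90b1 ran from 0.16 to 0.49, Hsp90aa1 from -0.36 to 0.16 and Hsp90ab1 from -0.0898 to 0.0085. The cause of these changes was not tested. No pairing by replicate number was seen, as same-numbered libraries had correlations of their deviations between -0.05 and 0.03. Counting error at these depths could hide a pairing, so these values do not settle whether the numbers pair the libraries. With the replicate number as a block the 4 counts of chaperone genes were again 0, 0, 3 and 0, and the calls over all genes were 64 in silencing. Few or no counts limit Hspe1, Hsph1, Hspa1a and Hspa1b to a description, and low counts leave Hspa5 and Hspd1 with wide intervals.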
